A study of Mus musculus with 6 samples.

Results

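Integrins and laminins, the receptors and the glycoproteins through which cells hold on to basement membranes, were described here in newborn mouse interscapular brown fat, sequenced as bulk RNA of the entire depot. The members were all genes of the deposited table whose symbol starts with Itga or Itgb, apart from the binding proteins Itgb1bp1, Itgb1bp2 and Itgb3bp, together with all Lama, Lamb and Lamc genes that carry a number. This gave 39 of the 19241 listed genes: 18 integrin alpha genes, 9 integrin beta genes, the integrin-like gene Itgbl1 and 11 laminin genes. The 3 WT libraries came from Fstl1-floxed newborns, and the 3 KO libraries from newborns labelled Myf5-Fstl1 KO, in which Fstl1, a secreted glycoprotein gene, was deleted in the lineage marked by Myf5. Skeletal muscle and many brown adipocytes of the depot derive from that lineage, so other cells of the depot keep the gene, and the labels name no Cre line and do not say whether a library is 1 animal or a pool. The question is what changes in the tissue when that lineage cannot make Fstl1. P-values measure the spread between these libraries, which may be technical in part.

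An integrin is a pair of an alpha and a beta subunit that spans the cell membrane. Outside the cell it binds matrix proteins such as collagen, fibronectin or laminin, or counter-receptors on other cells, and inside it is tied to actin by adaptors such as talin and vinculin. A laminin is a trimer of an alpha, a beta and a gamma chain that polymerises into the sheet on which the basement membrane is built. Each adipocyte, muscle fibre, Schwann cell and blood capillary lies on such a membrane.

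All values are FPKM, in which fragments are divided by transcript length and by library size, so levels of different genes can be set side by side. Low values fell in steps of whole reads, and these steps put the libraries at 13900000 to 14900000 reads each. The brown fat markers Cidea and Adipoq were at no less than 1299.14 and 889.1 FPKM in any library. Ucp1 was at 4365.84 to 6255.31 FPKM in WT and 1694.98 to 3591.5 FPKM in KO, without overlap (limma, log2 difference −1.08, adjusted p 0.0804). Of 8 adipocyte markers, 1 passed, lower in KO, against 1.01% of all tested genes called lower. This was Plin1, the lipid droplet coat protein perilipin 1 (limma, log2 fold change −1.36, adjusted p 0.0267), and the list median was −0.17. The part of adipocytes in the values below was not tested. Fstl1 was at 55.52, 130.04 and 54.37 FPKM in WT replicates 1 to 3, against 7.93, 13.08 and 8.77 FPKM in KO replicates 1 to 3, which is −2.79 ± 0.33 (SE) on the log2 scale (limma, adjusted p 0.00979). The Y-linked gene Ddx3y was at 59.54 to 60.82 FPKM in KO and at most 0.23 in WT, and Xist was at 44.82 to 85.51 FPKM in WT, against at most 0.92 in KO. Sex thus coincides with genotype in these libraries, and the effects of both cannot be told apart in any difference below. KO replicate 1 also stood apart in skeletal muscle markers, whose 10 genes summed to 314.4 FPKM there and to 1287 to 1871 FPKM in the other 5 libraries.

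The promoters of 3 members are shown because they differ in where the gene is used: Itgam, a myeloid gene and the member with the lowest p, Itga4, a gene of leukocytes and some other cells, and Itga5, a gene used by most cells of connective tissue. Promoter sequence was found for 25 of the 39 members. These 3 were chosen after their values were seen, among windows that end where the annotated gene begins. Each run holds the 250 bases before a RefSeq transcript start in GRCm38.p6, 5′ to 3′ on the strand of the gene. Capitals mark matches, on either strand, to GGGCGG (a GC box, bound by Sp1) or GAGGAA (a core bound by ETS factors such as PU.1).
Itgam, chr7:128062390-128062639, plus strand: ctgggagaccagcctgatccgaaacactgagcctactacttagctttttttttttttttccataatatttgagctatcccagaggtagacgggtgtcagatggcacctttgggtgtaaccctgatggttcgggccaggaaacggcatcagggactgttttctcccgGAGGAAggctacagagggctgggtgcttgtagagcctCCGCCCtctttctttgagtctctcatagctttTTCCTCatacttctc
Itga4, chr2:79255176-79255425, plus strand: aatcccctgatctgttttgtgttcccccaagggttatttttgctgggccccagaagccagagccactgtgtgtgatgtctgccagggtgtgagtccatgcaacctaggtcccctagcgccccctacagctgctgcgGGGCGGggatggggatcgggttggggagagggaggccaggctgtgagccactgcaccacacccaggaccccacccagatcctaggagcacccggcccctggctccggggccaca
Itga5, chr15:103366792-103367041, minus strand: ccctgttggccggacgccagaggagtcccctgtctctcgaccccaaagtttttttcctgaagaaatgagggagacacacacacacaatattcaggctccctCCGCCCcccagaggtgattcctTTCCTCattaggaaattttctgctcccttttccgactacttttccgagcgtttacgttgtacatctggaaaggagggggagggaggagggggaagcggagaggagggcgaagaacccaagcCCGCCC
The Itga5 window holds 11 CG pairs, while the Itgam and Itga4 windows hold 6 each, which is also the median over all 32851 promoter windows. Itgam has the ETS core on both strands, once between 84 and 79 and once between 15 and 10 bases before the start, and 1 GC box. Itga4 has 1 GC box and no ETS core, and Itga5 has 2 GC boxes and 1 ETS core. Of all windows, 32.7% hold a GC box and 23.3% an ETS core. A TATA box, searched in the same way as TATAAA, is in 12.4% of all windows and in none of the 3 shown. The motifs do not overlap each other, and a match describes letters and not a bound site.

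None of the integrin or laminin genes passed the test. Of the 39 members, 26 had a mean of at least 0.5 FPKM and were tested, and 0 passed an adjusted p of 0.05 (limma over all 13331 tested genes), against a background of 2.21% of all tested genes. At an unadjusted p under 0.05 there were 4 members, 15.4% of those tested, against 19.2% of all genes. The median log2 fold change, on the log2(FPKM + 1) scale used throughout, was 0.05 over the tested members and 0.01 over all genes, and the members ranged from −0.67 to 0.66. KO and WT values did not overlap in 5 tested members, 19.2% of them, against 24.9% of all genes. These were Itga6 and Itga7, lower in each KO library, as were 11.4% of all genes, and Itga3, Itgam and Itgb3, higher in each KO library, as were 13.6% of all genes. With 5 and 4 members, these shares were near those of all genes, and no difference from the background is read from them. Of the 18 tested integrin genes, 27.8% separated the groups and 22.2% had an unadjusted p under 0.05 (limma). Of the 8 tested laminin genes, 0% did either. All 5 members without overlap are thus integrin genes.

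**Figure D1:**
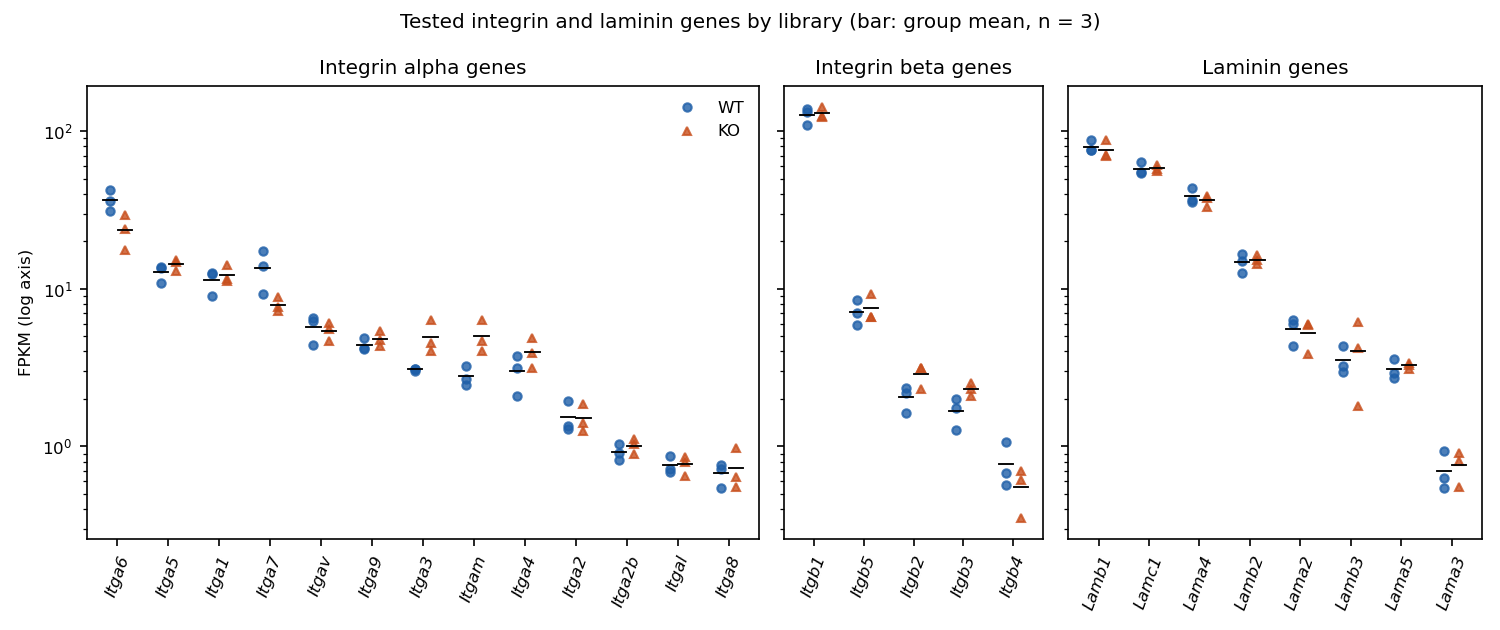
FPKM on a log axis of the 26 tested members in each library, with WT as circles, KO as triangles and the group mean (n = 3) as a bar. Itgb1, Lamb1, Lamc1 and Lama4 lie highest with overlapping groups, while Itga6 and Itga7 lie lower and Itga3 and Itgam higher in all KO libraries.

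**Figure D2:**
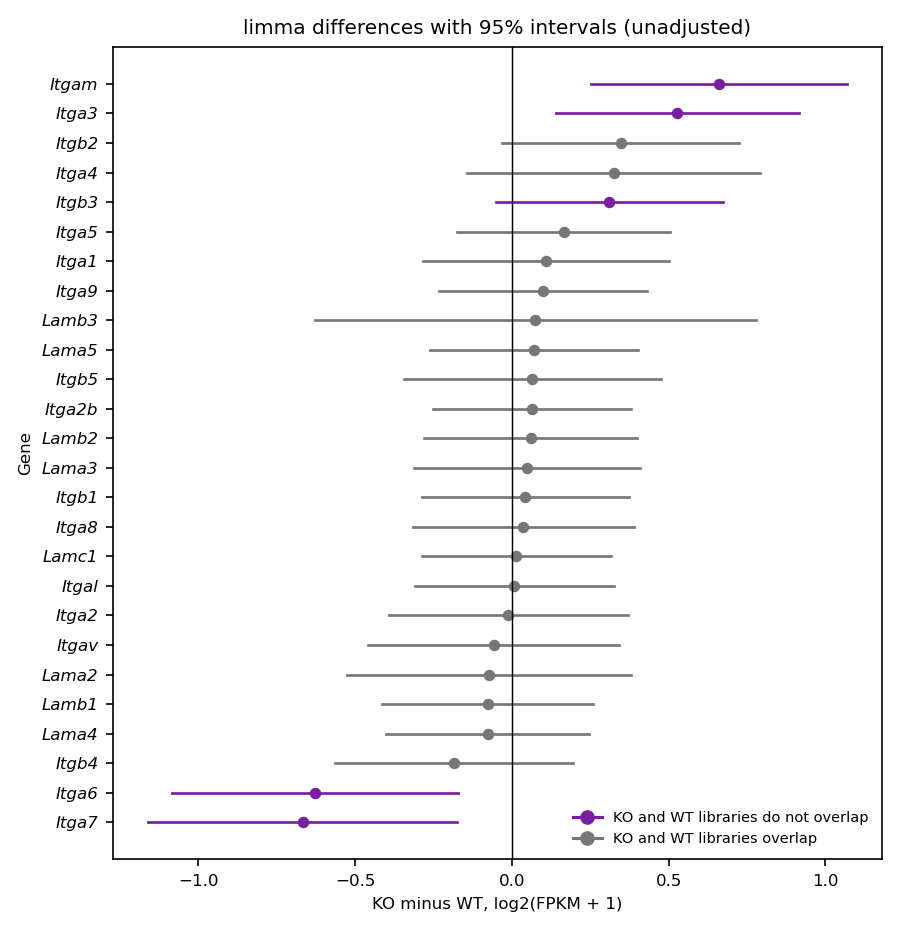
Differences between KO and WT on the log2(FPKM + 1) scale from limma, with unadjusted 95% intervals, for the 26 tested members in order of size. The order runs from −0.67 for Itga7 to 0.66 for Itgam, and apart from the 5 members without overlap between groups, Itgb2 at 0.35 and Itga4 at 0.32, the members lie between −0.19 and 0.17.

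Among the receptors, the alpha subunits that bind laminin are Itga3, Itga6 and Itga7. None passed; Itga6 and Itga7 were lower and Itga3 higher in each KO library. Itga6 (Entrez gene 16403, chr2:71786886-71858427), which pairs with Itgb1 in many cells and with Itgb4 in epithelia and Schwann cells, was the most abundant alpha gene. Its levels were 36.27, 42.29 and 31.26 FPKM in WT replicates 1 to 3, against 23.89, 29.29 and 17.7 FPKM in KO replicates 1 to 3. The highest KO library thus lay just under the lowest WT library, with group means of 36.6 ± 5.52 and 23.6 ± 5.80 FPKM (SD, n = 3 each). KO held 64.5% of the WT mean, a log2 difference of −0.63 that did not pass (limma, SE 0.20, adjusted p 0.139). The estimated 1088 to 2636 reads per library leave little counting error in this gene. In bulk RNA, fewer cells of a type and less RNA per cell cannot be told apart.

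Itga7 (16404, chr10:128933421-128958286) encodes the laminin receptor of skeletal muscle fibres and is also used by smooth muscle. It was at 9.19, 17.47 and 13.84 FPKM in WT, against 8.87, 7.6 and 7.21 FPKM in KO. WT replicate 1 lay next to the KO libraries, and the WT spread was wide, at 13.5 ± 4.15 FPKM against 7.89 ± 0.868 in KO (SD, n = 3 each). The log2 difference of −0.67 did not pass (limma, SE 0.22, adjusted p 0.144). Without WT replicate 1, the WT library nearest to KO, it was −0.90 and passed (limma, adjusted p 0.0425). Itga7 was then the 1 member called, in a fit that called 370 of 13331 genes. Without WT replicate 2, the highest library, the difference was −0.47 (limma, adjusted p 0.421). Itga7 passed in none of the other alternative fits. All 10 skeletal muscle markers had a log2 difference below 0, as did 6446 of all 13331 tested genes. None of the 10 passed, and their sum was 314.4, 1418 and 1706 FPKM in KO replicates 1 to 3. KO replicate 1, where these markers were lowest, had the highest Itga7 value of the KO libraries. The 8 mural cell markers, among them smooth muscle genes, summed to 127.9 to 165.9 FPKM in WT and 117 to 124.8 FPKM in KO. Of these, 7 of 8 were below 0, against 6446 of all 13331 tested genes. Cspg4 alone passed, lower in KO (limma, log2 fold change −1.19, adjusted p 0.0435), against 1.01% of all tested genes called lower. The 10 endothelial markers overlapped in sum, at 607 to 826.4 FPKM in WT and 625.4 to 703 FPKM in KO. Of these, 6 were below 0 and 4 above, and 0 passed. The part of mural and endothelial cells in the Itga7 and Itga6 values was not tested.

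**Figure D3:**
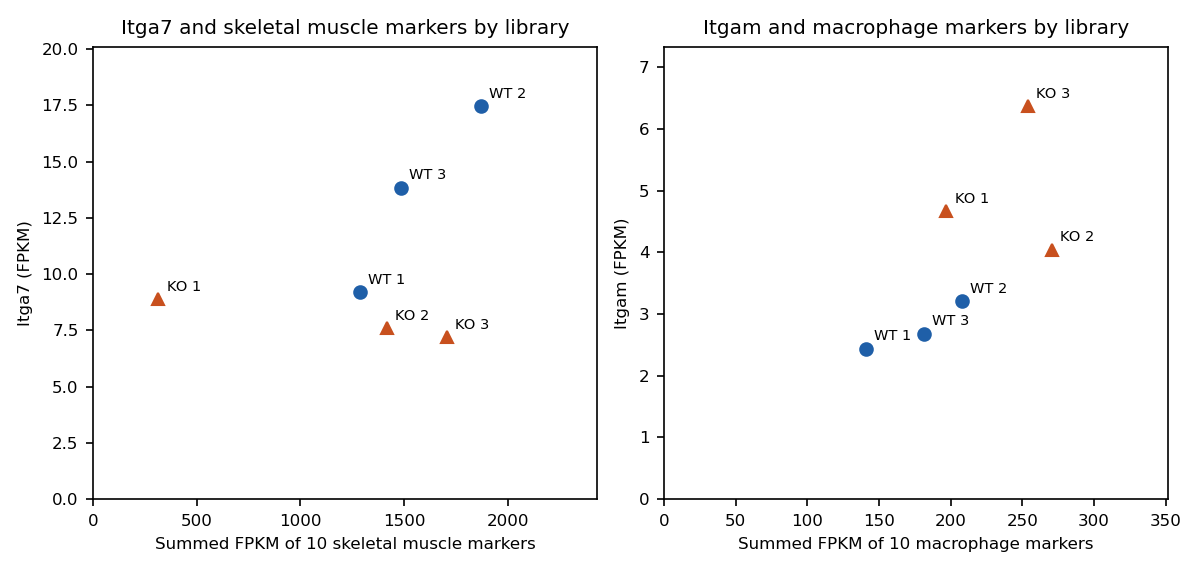
Itga7 against the summed FPKM of 10 skeletal muscle markers, and Itgam against that of 10 macrophage markers, with 1 point per library, WT as circles and KO as triangles. KO replicate 1 is lowest in muscle markers at 314.4 FPKM and has an Itga7 value of 8.87 FPKM, and the KO libraries lie at 4.04 to 6.37 FPKM of Itgam, above all WT libraries.

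Itga3 (16400, chr11:95044475-95076844), a laminin receptor subunit best known from epithelia, lay the other way. It was at 3.11, 3.09 and 3.02 FPKM in WT, against 4.52, 4.02 and 6.3 FPKM in KO. The WT libraries were nearly identical and KO replicate 3 was the highest, with means of 3.07 ± 0.0473 and 4.95 ± 1.20 FPKM (SD, n = 3 each). The log2 difference was 0.53 (limma, SE 0.17, adjusted p 0.143). Summed over Itga3, Itga6 and Itga7, WT held 48.12 to 62.85 FPKM and KO 31.21 to 40.91 FPKM. Within that sum Itga3 took 4.92% to 6.40% in WT and 9.83% to 20.2% in KO, while the shares of Itga6 and Itga7 overlapped between groups. Itga6 remained the largest of the 3 in each library, at 56.7% to 74.7%.

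Of the collagen-binding alpha genes, 2 were tested, and the groups overlapped in both. Itga1, the subunit for basement membrane collagen found on mural and endothelial cells, was at 8.99 to 12.61 FPKM in WT and 11.16 to 14.09 FPKM in KO (limma, log2 difference 0.11, adjusted p 0.782). Itga2 was at 1.29 to 1.94 and 1.25 to 1.86 FPKM, with a log2 difference of −0.01. Itga10 and Itga11, known from cartilage and fibroblasts, had means of 0.485 and 0.243 FPKM and were not tested.

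Among the alpha subunits that recognise the RGD motif of fibronectin and related proteins, Itga5, the main fibronectin receptor subunit, was at 10.84, 13.65 and 13.62 FPKM in WT, against 14.82, 12.99 and 15.15 FPKM in KO. The groups overlapped, and the log2 difference was 0.17 (limma, SE 0.15, adjusted p 0.59). Itgav, the shared partner of several beta subunits, was at 4.4 to 6.52 and 4.66 to 6.03 FPKM. Itga2b, the platelet subunit, and Itga8 were near 1 FPKM or below, with log2 differences of 0.06 and 0.04. Itga9 and Itga4, related subunits that bind fibronectin, tenascin or VCAM1, were at 4.15 to 4.89 and 2.08 to 3.75 FPKM in WT, against 4.34 to 5.37 and 3.13 to 4.88 FPKM in KO. Both overlapped, with log2 differences of 0.10 and 0.32.

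Of the leukocyte alpha genes, Itgam differed most. Itgam (16409, chr7:128062640-128118491) encodes CD11b, the integrin subunit of macrophages, monocytes and neutrophils that also binds complement. It was at 2.44, 3.21 and 2.68 FPKM in WT, against 4.66, 4.04 and 6.37 FPKM in KO, so that the lowest KO library lay above the highest WT library. Group means were 2.78 ± 0.394 and 5.02 ± 1.21 FPKM (SD, n = 3 each), KO being at 181% of WT. The log2 difference of 0.66 was the largest among the members upward and had their lowest adjusted p, 0.0957 (limma, SE 0.18), which misses the threshold. Its beta partner Itgb2, the subunit shared by leukocyte integrins, was at 1.63, 2.17 and 2.35 FPKM in WT, against 2.32, 3.16 and 3.16 FPKM in KO, and these values overlapped (limma, log2 difference 0.35, adjusted p 0.30). Itgal, the lymphocyte subunit of the same group, was at 0.69 to 0.87 and 0.65 to 0.86 FPKM, a log2 difference of 0.01.

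The genes next to Itgam on chromosome 7 were at very low levels: Itgax was at 0.05 to 0.16 FPKM and Itgad was listed at 0 in 5 of 6 libraries, with 0.04 FPKM in WT replicate 2. Itgae, which marks lymphocytes and dendritic cells in epithelia, was at 0.24, 0.37 and 0.31 FPKM in WT, against 0.19, 0.23 and 0.2 FPKM in KO. These groups did not overlap, but the values rest on an estimated 10 to 21 reads per library and were not tested. All 10 macrophage markers had a log2 difference above 0, as did 6885 of all 13331 tested genes, and none of the 10 passed. Their median was 0.36, with sums of 140.7 to 207.8 FPKM in WT and 197.1 to 270.6 FPKM in KO. KO replicate 3 was highest in Itgam, but KO replicate 2 was highest in these markers. Of 10 neutrophil and lymphocyte markers, 3 were tested and none passed, with sums of 115.6 to 175.3 and 140.4 to 327.7 FPKM, and no marker of either list was at 0 in each library. The part of these cells in the Itgam and Itgb2 values was not tested.

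**Figure D4:**
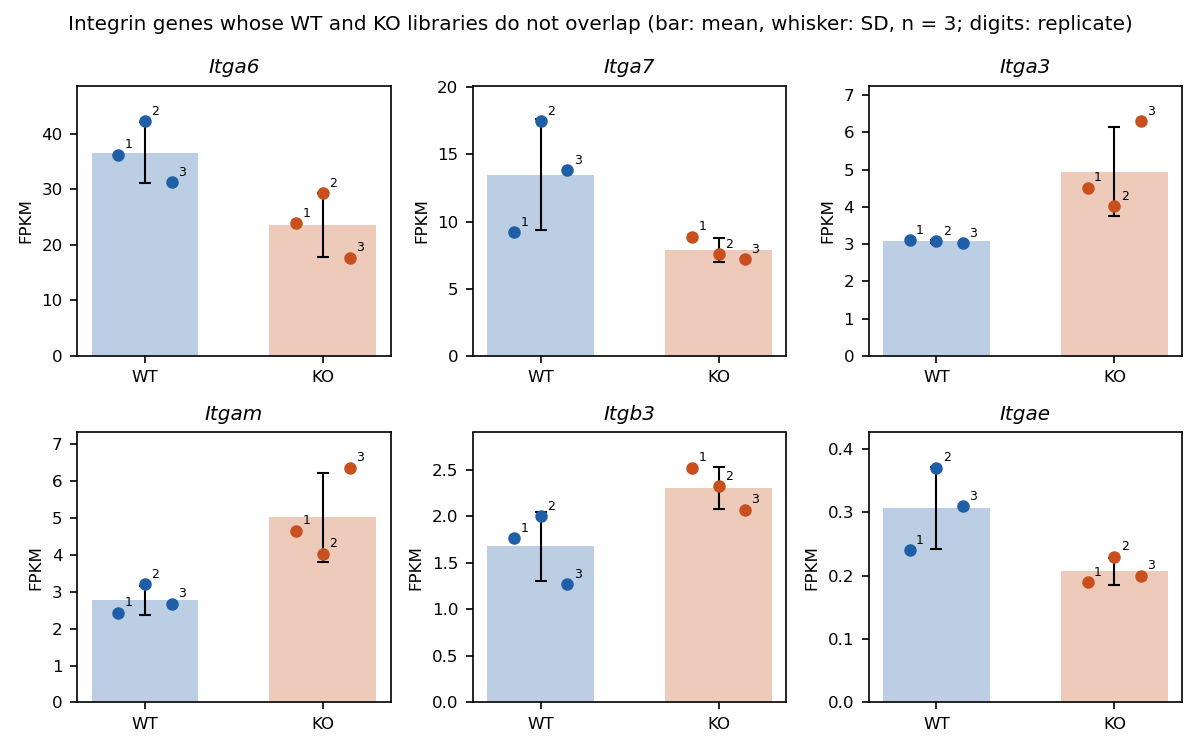
FPKM of 6 integrin genes whose WT and KO libraries do not overlap, with each library as a numbered point, the group mean as a bar and the SD as a whisker (n = 3 each). Itga6, Itga7 and Itgae are lower and Itga3, Itgam and Itgb3 higher in KO; Itgae lies below the filter and was not tested.

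The beta subunits were dominated by Itgb1, the common partner of the collagen, laminin and fibronectin receptors. Itgb1 (16412, chr8:128685654-128733579) was the most abundant member, at 137.68, 132.17 and 109.83 FPKM in WT, against 124.88, 143.08 and 122.32 FPKM in KO. The groups overlapped, and the log2 difference was 0.04 with an interval of −0.29 to 0.37 (limma, 95%, adjusted p 0.911). Itgb1 made up 89.0% to 92.9% of all integrin beta FPKM in WT and 89.8% to 90.9% in KO. Itgb5, which pairs with Itgav, followed at 5.92 to 8.43 and 6.66 to 9.2 FPKM (log2 difference 0.07).

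Itgb3 (16416, chr11:104608000-104670476), the partner of Itgav and of the platelet subunit Itga2b, was at 1.76, 2 and 1.27 FPKM in WT, against 2.52, 2.32 and 2.07 FPKM in KO. WT replicate 2 and KO replicate 3 lay almost side by side, and the log2 difference of 0.31 did not pass (limma, SE 0.16, adjusted p 0.33). Its platelet partner Itga2b overlapped, at 0.82 to 1.04 and 0.89 to 1.11 FPKM, and the 8 platelet and megakaryocyte markers summed to 40.55 to 81.18 FPKM in WT and 56.14 to 102 FPKM in KO. Most of that sum was Pf4, at 34.88 to 67.31 and 47.69 to 83.01 FPKM, and of the 4 tested markers 2 had a log2 difference above 0 and 2, Gp1ba at −0.07 and Treml1 at −0.32, below. None passed. The part of platelets in the Itgb3 values was not tested. Itgb4, the hemidesmosome subunit, was at 0.57 to 1.06 and 0.35 to 0.7 FPKM (limma, log2 difference −0.19, adjusted p 0.587). Itgb6, Itgb7, Itgb8, Itgb2l and the integrin-like Itgbl1 each had a mean below 0.3 FPKM and were not tested. Of these, Itgb8, an activator of latent TGF-beta together with Itgav, was at 0.27 FPKM in WT replicate 1 and at most 0.09 FPKM in the other 5 libraries.

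The laminins, ligands of these receptors, differed little between the groups. The 8 tested laminin genes had log2 differences of −0.08 to 0.08, 0 had an unadjusted p under 0.05 and in none did the groups separate. Lamb1 (16777) was at 87.96, 75.57 and 75.74 FPKM in WT, against 69.24, 70.52 and 87.55 FPKM in KO, Lamc1 (226519) at 54.92, 63.57 and 54.23 against 57.17, 60.89 and 56.07 FPKM, and Lama4 (16775) at 36.52, 43.35 and 35.59 against 37.39, 32.95 and 38.74 FPKM. Together these encode the laminin of capillary and adipocyte basement membranes, and their intervals ran from −0.29 to 0.32 for Lamc1, −0.41 to 0.26 for Lamb1 and −0.40 to 0.25 for Lama4. Differences outside these intervals were not seen at this number of libraries, and smaller ones could not be resolved.

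Lama4 made up 76.6% to 82.6% of the laminin alpha FPKM over the 6 libraries and Lamb1 77.2% to 85.0% of the beta FPKM. Lama2, the alpha chain of the muscle and Schwann cell basement membrane, followed, at 4.3 to 6.36 FPKM in WT, against 3.85, 5.95 and 5.9 FPKM in KO. The groups overlapped. Lama5, another alpha chain of vascular basement membrane, was at 2.73 to 3.56 and 3.11 to 3.39 FPKM, and Lamb2, which replaces Lamb1 at synapses and in mature vessels, at 12.54 to 16.58 and 14.35 to 16.32 FPKM. Lama1, the embryonic alpha chain, was at no more than 0.04 FPKM in any library, and Lamc3 at 0.19 to 0.37 FPKM.

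**Figure D5:**
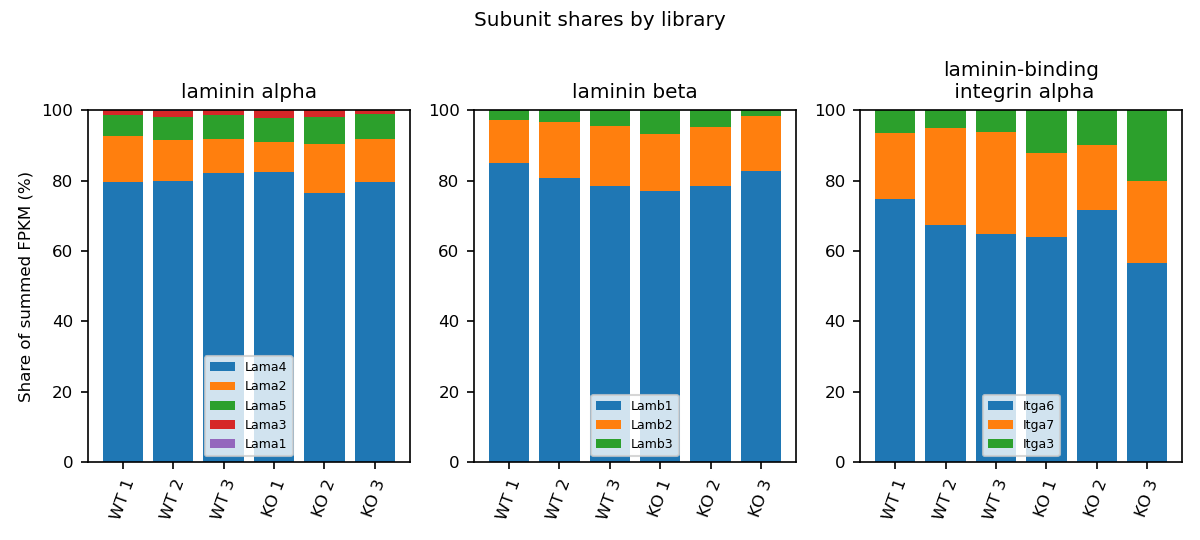
Share in percent of the summed FPKM of the laminin alpha and beta chains and of the laminin-binding integrin alpha genes held by each gene, with 1 stacked bar per library. Lama4 and Lamb1 lead their classes in all 6 libraries, and the Itga3 share is 4.92% to 6.40% in WT and 9.83% to 20.2% in KO.

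Lamb3 and Lama3, chains of the epithelial laminin, overlapped between groups. Lamb3 was at 2.94, 3.23 and 4.34 FPKM in WT, against 6.16, 4.19 and 1.8 FPKM in KO, so that the KO libraries held both the highest and the lowest value. Lamb3 had the widest interval of the tested members, −0.63 to 0.78 around 0.08. Lama3 was at 0.54 to 0.93 and 0.55 to 0.91 FPKM. Of the 8 epidermis markers, Krt5, Krt14, Krt1 and Krt15 were listed at 0 in all WT libraries and at no more than 0.27 FPKM in KO. The 2 tested markers, Krt10 and Trp63, went the other way and were lower in each KO library, as were 11.4% of all genes. Trp63 was at 0.56 to 1.27 FPKM in WT and 0.2 to 0.52 FPKM in KO (limma, log2 difference −0.52, adjusted p 0.171). Krt10 was at 1.93 to 2.07 and 1.42 to 1.88 FPKM (limma, log2 difference −0.17, adjusted p 0.557). The whole list summed to 2.56 to 3.42 FPKM in WT and 2.13 to 2.65 FPKM in KO.

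Genes that work with the integrins and laminins were taken from 4 lists. Of 27 tested adaptors that tie integrins to actin and signalling, 1 passed, lower in KO, against 1.01% of all tested genes called lower, and 18.5% had an unadjusted p under 0.05, against 19.2% of all genes. The list median was −0.01. The gene called was Vcl, vinculin, which binds talin and actin at adhesions under tension: 37.58, 38.08 and 31.84 FPKM in WT and 22.74, 22.78 and 21.33 FPKM in KO. Each KO library lay well below each WT library, and the log2 fold change was −0.66 (limma, SE 0.14, adjusted p 0.0465). The call is marginal, as Vcl missed the threshold in 9 of 13 alternatives, among them each fit without 1 library, with adjusted p (limma) from 0.0375 to 0.208. Vcl is abundant in smooth and skeletal muscle. Skeletal muscle markers summed to 1287 to 1871 FPKM in WT and to 314.4, 1418 and 1706 FPKM in KO replicates 1 to 3. Mural markers summed to 127.9 to 165.9 FPKM in WT and 117 to 124.8 FPKM in KO. The part of these cells in the Vcl values was not tested.

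Of 15 tested partners of laminin in the basement membrane, 0 passed and 2 had an unadjusted p under 0.05 (limma), 13.3% against 19.2% of all genes, with a median of −0.06. These were Smoc1, a calcium-binding matrix protein, with 20.9 ± 3.16 and 12.4 ± 1.01 FPKM (limma, log2 difference −0.71, adjusted p 0.0565), and Nid2, nidogen 2, which links laminin to collagen IV, with 41.5 ± 5.52 and 24.7 ± 4.42 FPKM (limma, −0.73, adjusted p 0.0674; SD, n = 3 each). Its relative Nid1 was at 114 ± 10.9 and 133 ± 12.6 FPKM, with a log2 difference of 0.22. Of 15 tested genes for other laminin receptors and their glycosylation, 0 passed and 2 had an unadjusted p under 0.05 (limma), again 13.3%. Below 0 lay 12 of them, with a median of −0.10, against 6446 of all 13331 tested genes. The lowest p was that of Dag1, dystroglycan, with 56.7 ± 3.22 and 39.8 ± 7.72 FPKM (limma, −0.52, adjusted p 0.138; SD, n = 3 each).

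Of 21 tested integrin ligands other than laminins, 0 passed and 6 had an unadjusted p under 0.05 (limma), 28.6% against 19.2% of all genes, with a median of 0.02. The groups did not overlap in 7, or 33.3% against 24.9% of all genes, 4 lower and 3 higher in KO. The 2 lowest p were those of Thbs1, thrombospondin 1, with 17.9 ± 2.31 and 28.5 ± 4.89 FPKM (limma, log2 difference 0.64, adjusted p 0.0913), and of Vcam1, a counter-receptor of the Itga4 integrins, with 3.56 ± 0.537 and 6.23 ± 1.41 FPKM (limma, 0.65, adjusted p 0.099; SD, n = 3 each). In both, all KO libraries lay above all WT libraries, as in 13.6% of all genes. Fibronectin, Fn1, was also above 0, at 0.69, with overlapping groups (limma, adjusted p 0.144). The other 3 lay below 0 without overlap: Ctgf at −0.45, Npnt, nephronectin, at −0.43 and Tgfb1, a TGF-beta precursor that integrins can activate, at −0.55 (limma, adjusted p 0.136, 0.195 and 0.198).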

How the data were processed

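The deposited table holds FPKM values, calculated by the authors per the file headers, for 6 libraries of total RNA, 3 WT and 3 KO, with groups and replicate numbers from the sample titles. HISAT2 2.0.4, Bowtie2 2.2.5, DESeq2 and the build mm10 are named in the submitters' processing notes, without their roles; strand handling and filters are not given in the sources used here. FPKM are not counts, so log2(FPKM + 1) was fitted with limma 3.58.1 in R 4.3.3 (eBayes with trend, no covariates) for the 13331 genes averaging 0.5 FPKM or more, with Benjamini-Hochberg adjustment over all of them at 0.05. On simulated data, the fit called 167 of 200 genes changed by 1.5 on the log2 scale, and 6 unchanged genes. Smaller changes were not simulated, so power for differences of the size seen in the members was not tested. Depth was estimated from whole-read steps in single-transcript genes of 500 to 1300 nt, with a length offset of 50 nt, searched between 8000000 and 20000000 reads: 78.2% to 82.9% of 474 to 504 values per library lay within 0.2 of a whole read, against 41.0% to 45.5% with shuffled lengths. The search was narrowed after a first one up to 30000000 reads put WT replicate 3 at 29700000, near a multiple of its value here (79.7% against 78.9% near whole reads), and left the other 5 libraries as given; read numbers for WT replicate 3 rest on that choice. Read numbers per gene come from this estimate and GENCODE vM21 transcript lengths, and cover no other error. Positions and promoters are RefSeq's in GRCm38.p6, the assembly of mm10, matched by Entrez identifier for all 39 members. The members, the lists of partner genes and the cell markers were chosen with earlier results of these data known. Genes named in full are Fstl1, members past the threshold or without overlap, the 3 most abundant of each kind, members under the filter, and from each partner list those past the threshold or the 2 with the lowest p; Nid1, Fn1, Ctgf, Npnt, Tgfb1 and the named markers were added after their values were seen. Some genes that this rule names are not reported here. Alternatives were a pseudocount of 0.1, no filter, a filter at 5 FPKM, quantile and median-of-ratios scaling, no trend, a replicate block, and leaving out each library. Fits without 1 library kept the same 13331 genes, a choice made after fits filtered again on the 5 remaining libraries had been seen.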

Additional observations from a re-analysis of the deposited data

How the results depend on the processing

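Members passing the threshold numbered 0 in every fit except the one without WT replicate 1, where Itga7 passed, so that the fits without 1 library gave 0 to 1. The median over the tested members ran from −0.02 with the filter at 5 FPKM, which leaves 12 members, to 0.10 without KO replicate 3. Among all genes, 295 passed, against 35 without the filter (of 19241 tested) and 31 to 370 when 1 library was left out, with the minimum when WT replicate 3 and the maximum when WT replicate 1 was absent. Filtering again on the 5 libraries left, which was run first, gave 34 to 444 genes, and Itga7 without WT replicate 1 (limma, adjusted p 0.0389) was again the 1 member called in those fits. Fstl1 had the same fold change of −2.79 without the filter, at an adjusted p of 0.0606 (limma), and ran from −3.01 to −2.39 over all alternatives. Named members kept their direction and side of the threshold in 154 of 165 values. Sign changes were in genes near 0: Lamc1 was at −0.0104 with median-of-ratios scaling, and without 1 library Lamc1 ran from −0.0262 to 0.0865, Lama4 from −0.1301 to 0.0087, Itga1 from −0.0363 to 0.1867, Itgb1 from −0.0554 to 0.1063 and Itgb5 from −0.0726 to 0.1788. Fits without 1 library also hold fewer libraries, and the cause of these shifts was not tested. Same-numbered libraries deviated from their group means with low correlations of 0.0681, 0.0433 and 0.0433, and the main fit did not treat them as pairs. With the replicate block 167 genes and 0 members passed (lowest adjusted p among the 5 members without overlap, limma, 0.0872), and Vcl did not (0.076).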

Other observations

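The binding proteins that share the integrin prefix did not pass the test. Itgb1bp2, melusin, a muscle protein that binds the tail of Itgb1, was at 15.61, 20.43 and 14.68 FPKM in WT, against 3.88, 15.2 and 16.05 FPKM in KO. KO replicate 1 alone was low, and it is the library with the lowest skeletal muscle markers, whose part in this value was not tested. The log2 difference was −0.68 (limma, SE 0.43, adjusted p 0.419). Itgb1bp1, which competes with talin for the Itgb1 tail, was at 11.13 to 14.31 FPKM in WT and 10.95 to 11.6 FPKM in KO (limma, log2 difference −0.16, adjusted p 0.575), and Itgb3bp, a centromere protein, at 2.6 to 3.62 and 3.45 to 4.75 FPKM (limma, 0.27, adjusted p 0.422).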
